A study of Mus musculus with 6 samples.

Results

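In the transcript tables of 6 mouse cortex libraries, 879 of 16648 assembled loci, or 5.28%, carried no Ensembl gene identifier, and these 879 loci are described here. A locus is a group of overlapping transcripts put together from the reads and given 1 running number (XLOC), which was shared by the 6 libraries. The libraries came from a photothrombosis model of ischemic stroke, in which the dye Rose Bengal is activated by light through the skull and blocks the cortical vessels. The whole cortex on the operated side was taken from male C57/BL6J mice of 6 to 8 weeks, either at day 1, 3, 7, 14 or 28 after stroke or, as control, at day 7 after a sham operation. RNA of 3 mice was pooled for each library, so each group was 1 library, no difference had a replicate check, and no p-value was computed. The RNA was poly(A)-selected and sequenced strand-specifically as paired reads of 150 bases. The stated mean yield was 33.6 M reads, and the depth of the single libraries is unknown.

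An assembler reports every transcript the reads support, and a locus gets an identifier only where it can be tied to an annotated gene. Loci can stay nameless because the annotation lacks them, as with many long noncoding RNAs, which are spliced and polyadenylated like mRNAs but encode no protein and are often transcribed antisense to or beside a coding gene. They can also stay nameless because they lie on a patch scaffold. A patch is a separately named piece of sequence that corrects a stretch of a chromosome, so a gene under a patch is present both on the chromosome and on the patch.

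The level of a locus was its FPKM, the number of sequenced fragments scaled to transcript length and library depth. The authors' values belonged to transcript starts, transcript ends and splicing events, and the level used was the largest of the summed starts, the summed ends and any single event. A locus with no event in a library is called not listed, which is not a measured 0. Each post-stroke value was divided by the control value, with 0.1 FPKM added to both, and the ratio is given on the log2 scale. Where 6 values are given, control comes first and the values after stroke follow in the order of days 1, 3, 7, 14 and 28. Ratios understate the change of low loci, and no ratio is given for a locus not listed in one of the libraries.

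By position and splice sites the 879 loci fell into 3 sets. On 24 patch scaffolds lay 74 loci, and no locus with an identifier lay on any patch. Another 134 loci lay on the chromosomes or unplaced scaffolds and had at least 1 splice boundary at the exact position and strand of a splice site of the GENCODE M21 annotation (build GRCm38, the same sequence as mm10). The remaining 671 loci shared no splice site with that annotation and are called unmatched. For comparison, 95.9% of the 15769 loci with an identifier had a splice boundary in GENCODE M21.

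Start regions are shown for 6 loci that the results turn on: the most abundant unmatched locus (Gm19378), a long noncoding RNA that was highest at day 7 (D730003I15Rik, the RefSeq gene at the start of Gm37168), an unmatched locus beside March6 (Gm41287), and the patch loci of Meg3, Ifi30 and Rab3a. The sequences are those of RefSeq on GRCm38.p6, read 5′ to 3′ on the gene's strand. They run from 250 bases before to 50 bases after the RefSeq start, and for Ifi30 and Rab3a over the 250 bases before it. The windows are chr15:89767365-89767664 (plus strand), chr1:191224204-191224503 (plus), chr15:31530854-31531153 (plus), chr12:109540746-109541045 (plus), chr8:70766664-70766913 (minus) and chr8:70754453-70754702 (plus), in the order printed. Capitals mark matches on either strand to TATAAA (the motif bound by TBP), CCAAT (a box bound by NF-Y), TGANTCA (the AP-1 motif) or TTCNNNGAA (the STAT motif).
Gm19378: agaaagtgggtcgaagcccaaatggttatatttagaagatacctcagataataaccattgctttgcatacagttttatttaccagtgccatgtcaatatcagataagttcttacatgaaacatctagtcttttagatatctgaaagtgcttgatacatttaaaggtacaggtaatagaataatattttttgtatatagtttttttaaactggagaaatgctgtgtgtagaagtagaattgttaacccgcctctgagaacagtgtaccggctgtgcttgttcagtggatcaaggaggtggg
D730003I15Rik: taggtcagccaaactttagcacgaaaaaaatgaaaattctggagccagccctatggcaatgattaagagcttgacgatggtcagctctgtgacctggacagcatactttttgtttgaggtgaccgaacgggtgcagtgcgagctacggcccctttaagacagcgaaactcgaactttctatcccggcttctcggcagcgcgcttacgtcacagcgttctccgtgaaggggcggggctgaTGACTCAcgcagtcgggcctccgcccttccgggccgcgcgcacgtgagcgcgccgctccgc
Gm41287: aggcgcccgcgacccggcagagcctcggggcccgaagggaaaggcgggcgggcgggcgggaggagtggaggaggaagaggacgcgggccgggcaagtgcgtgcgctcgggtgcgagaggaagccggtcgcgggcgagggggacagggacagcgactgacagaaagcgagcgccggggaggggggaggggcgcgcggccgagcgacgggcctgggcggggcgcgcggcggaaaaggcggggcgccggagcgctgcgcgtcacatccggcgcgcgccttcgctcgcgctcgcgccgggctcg
Meg3: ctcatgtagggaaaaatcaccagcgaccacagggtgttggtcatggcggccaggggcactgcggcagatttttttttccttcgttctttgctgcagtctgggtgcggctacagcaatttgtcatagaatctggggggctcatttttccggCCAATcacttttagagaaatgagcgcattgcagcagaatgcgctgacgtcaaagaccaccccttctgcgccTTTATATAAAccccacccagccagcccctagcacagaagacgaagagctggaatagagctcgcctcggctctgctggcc
Ifi30: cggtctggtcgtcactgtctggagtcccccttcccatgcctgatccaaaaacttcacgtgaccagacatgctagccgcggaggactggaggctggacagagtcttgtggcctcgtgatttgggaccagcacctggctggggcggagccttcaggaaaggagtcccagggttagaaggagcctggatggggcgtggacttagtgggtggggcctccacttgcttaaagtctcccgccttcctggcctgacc
Rab3a: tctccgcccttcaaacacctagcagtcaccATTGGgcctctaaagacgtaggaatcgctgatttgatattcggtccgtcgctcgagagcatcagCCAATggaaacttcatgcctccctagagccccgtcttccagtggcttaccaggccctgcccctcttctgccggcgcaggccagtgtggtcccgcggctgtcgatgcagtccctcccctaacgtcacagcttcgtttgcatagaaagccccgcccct

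The D730003I15Rik window held 1 TGANTCA match, 11 bases before the start. The Meg3 window held a CCAAT match and 2 overlapping TATAAA matches on opposite strands, and the Rab3a window 2 CCAAT matches. No match to these 4 motifs lay in the windows of Gm19378, Gm41287 and Ifi30. Of 32807 RefSeq windows of 300 bases, 13.6% held TATAAA, 37.4% CCAAT, 7.82% TGANTCA and 8.29% TTCNNNGAA. In the 250 bases before the start, 33.8% held CCAAT. The assembled starts lay 27 bases from the RefSeq start for Gm19378, 0 for D730003I15Rik and 19 for Gm41287. For the patch loci, in patch coordinates, the distances were 116 bases for Meg3, 77 for Ifi30 and 79 for Rab3a. The assembled start of Meg3 lay before the RefSeq start. The window of Gm41287 had a GC content of 79.0% and that of Gm19378 of 35.7%.

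Meg3 and Rian are also hosts of microRNAs. These were not measured in poly(A)-selected libraries, but they show what else the nameless locus carries. The mature sequences inside both genes on chromosome 12 are given from RefSeq (GRCm38.p6), miR-1906 and miR-770 within Meg3 and the others within Rian, with the seed, bases 2 to 8, in capitals. No seed was shared between any of them.
miR-1906: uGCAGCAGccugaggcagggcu
miR-770-5p: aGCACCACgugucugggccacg
miR-770-3p: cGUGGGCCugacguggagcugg
miR-341-5p: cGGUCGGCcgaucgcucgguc
miR-341-3p: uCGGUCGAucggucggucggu
miR-1188-5p: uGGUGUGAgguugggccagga
miR-1188-3p: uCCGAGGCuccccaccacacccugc
miR-370-5p: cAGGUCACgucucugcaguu
miR-370-3p: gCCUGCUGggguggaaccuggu

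The libraries held the cell types of a cortex, along with others. All 4 markers of cortical neurons were listed in every library (Slc17a7 at 164 to 303 FPKM), and so were those of astrocytes, microglia and oligodendrocytes. Their sums differed between libraries. The markers of cortical neurons summed to 1097 FPKM in control and to their lowest sum, 742, at day 14, where Gad1 was above control. Microglial markers summed to 91.6 FPKM in control and 487 at day 7, and astrocyte markers to 257 in control and 924 at day 3. Fibroblast and meningeal markers summed to 17.0 FPKM in control and 55.5 at day 14. Of 4 hypothalamic markers, 3 were listed, none of them in control, and their sum was highest at day 1 (54.3 FPKM). The blood markers summed to 137 (day 7) to 402 FPKM. The 4 choroid plexus markers summed to between 181 FPKM at day 3 and 560 at day 28, almost all of it Ttr, and the neutrophil markers S100a8 and S100a9 to 16.3 FPKM at day 1 and at most 9.16 elsewhere. In bulk RNA, fewer cells of a type and less RNA per cell cannot be told apart.

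Most of the loci were listed in a single library. Of the 879, between 291 (day 28) and 313 (day 3) were listed per library, 526 (59.8%) in a single library and 82 (9.33%) in all 6. Among loci with an identifier the shares were 8.58% and 74.6%. The 3 sets differed in this. Of the 74 patch loci, 32 were listed in all 6 libraries and 14 in 1; of the 134 loci with a GENCODE splice site, 35 in all 6 and 44 in 1; and of the 671 unmatched loci, 15 in all 6 and 468 in 1.

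The sets also differed in level. The median of the highest FPKM of a locus was 5.88 for patch loci, close to the 6.24 of loci with an identifier, but 0.780 for loci with a GENCODE splice site and 0.497 for unmatched loci. At least 1 FPKM in some library was reached by 62 patch loci, 55 loci with a GENCODE splice site and 87 unmatched loci. The unmatched set was thus both the lowest in level and the one most often listed once. The smallest of these highest values were 0.318 FPKM for unmatched loci, 0.336 for loci with a GENCODE splice site and 0.369 for patch loci. Values under an identifier could be lower, as for Rapsn at day 14 (0.045 FPKM). The part of such a lower end in how often low loci were listed was not tested.

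**Figure D1:**
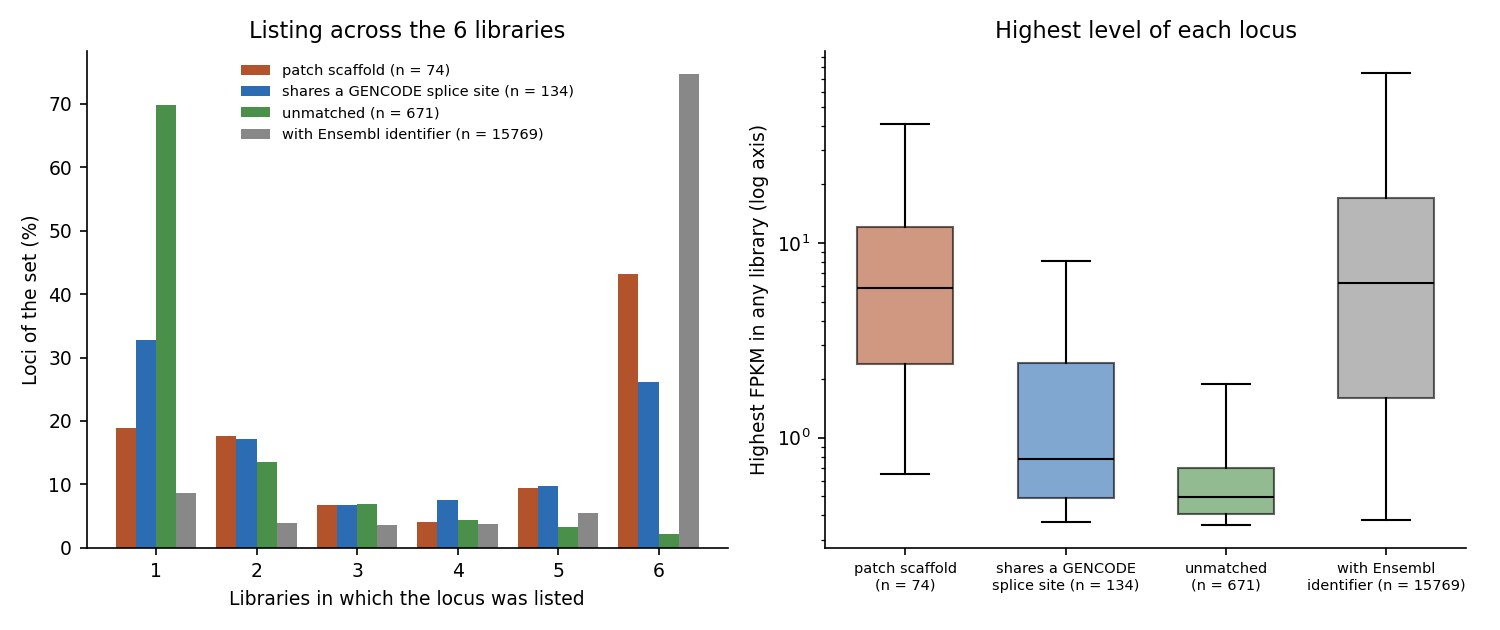
Listing and level of the 3 sets of loci without an identifier beside loci with one. Left, share of each set (%) by the number of libraries in which a locus was listed; right, highest FPKM of each locus on a log axis, with the median (line), quartiles (box) and the 5th and 95th percentiles (whiskers). Unmatched loci were mostly listed in 1 library, at a median highest level of 0.497 FPKM, while the patch loci (median 5.88) lay near the loci with an identifier (6.24).

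Post-stroke libraries were compared with control for loci of at least 1 FPKM in 1 of the 2 libraries, and a log2 ratio of at least 1 in size was counted, a locus not listed being taken as 0 for these counts. At day 1, 30 of 145 loci were higher and 34 lower, against 5.38% higher and 4.79% lower among all 11976 loci compared. At day 3, 24 of 141 were higher and 22 lower (8.64% and 2.8% of all 12231 loci), and at day 7, 17 of 133 were higher and 26 lower (8.62% and 2.41% of 12250). At day 14, 22 of 142 were higher and 37 lower (9.15% and 7.27% of 12236), and at day 28, 26 of 142 were higher and 25 lower (3.9% and 3.07% of 11933).

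The shares of 12.8% to 20.7% higher and 15.6% to 26.1% lower were above those of all loci, but most of these loci were listed in only 1 of the 2 libraries. At day 1, 25 of the loci compared were listed only after stroke and 24 only in control. Among loci listed in both libraries, 5 of 96 were higher and 10 lower at day 1, 7 and 3 of 105 at day 3, 7 and 7 of 104 at day 7, 7 and 16 of 106 at day 14, and 9 and 4 of 104 at day 28. All loci listed in both libraries gave 4.16% higher and 3.59% lower at day 1, 7.13% and 2.12% at day 3, 7.05% and 1.82% at day 7, 7.68% and 4.78% at day 14, and 3.08% and 2.13% at day 28. The median log2 ratio of the listed pairs lay between -0.02 at day 7 and 0.08 at day 14, beside 0.01 to 0.10 for all loci.

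**Figure D2:**
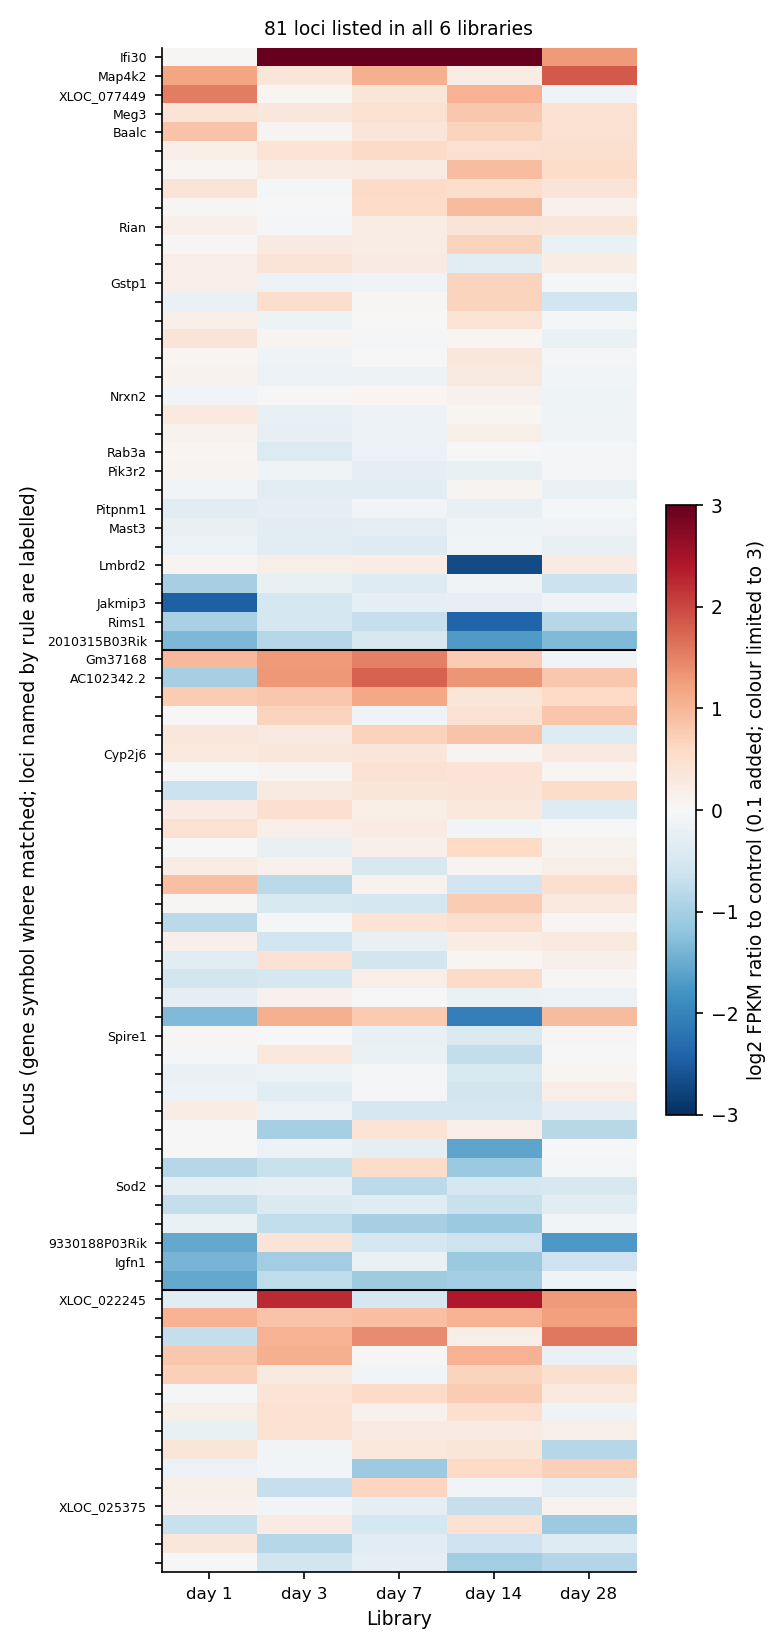
Log2 FPKM ratio to control (0.1 added to both values, colour limited to 3 in size) of the 81 loci that were listed in all 6 libraries and reached 1 FPKM, by post-stroke library; loci named by rule are labelled, and black lines part the 32 patch loci (top), the 34 with a GENCODE splice site (middle) and the 15 unmatched loci (bottom). Ifi30 was the patch locus with the highest ratios at days 3, 7 and 14, and Rims1 and Lmbrd2 were lowest at day 14.

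The patch loci were mostly known genes. The splice boundaries of 62 of the 74, on 18 patches, matched a GENCODE gene on the patch's chromosome after a shift of coordinates, found for the patch as a whole and adjusted for each locus by up to 1000 bases. They included Meg3, Rian and Dlk1 of the imprinted domain on chromosome 12, Rab3a, Ifi30, Pik3r2 and Mast3 on chromosome 8, Gstp1 and Pitpnm1 on chromosome 19, Nrxn2, Sf1 and Ppp2r5b elsewhere on chromosome 19, and Ranbp1, Tango2, Prodh, Zdhhc8 and Dgcr8 on chromosome 16. For 57 of the 62 genes the tables also held a value under the gene's own identifier, from the copy on the chromosome. The other 5 genes, Meg3, Gstp1, Celsr3, Il12rb1 and AA467197, had values on the patch alone. How reads were divided between the patch and the chromosome copy of a gene is not known. A patch value, its ratio or its absence is thus not a separate measure of the gene's expression.

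Meg3, a maternally expressed imprinted long noncoding RNA, was the most abundant of all 879 loci. Its locus (XLOC_077541, 8 of 16 splice boundaries at GENCODE sites) stood at 94.9 FPKM in control and, in day order, 126, 120, 129, 166 and 131 after stroke. Every post-stroke library was above control, by log2 ratios of 0.34 (day 3) to 0.81 (day 14), none of which reached 1. Rian, a noncoding RNA of the same domain, had 29.8 to 39.6 FPKM on the patch and 74.4 to 111 under its own identifier. The order of the libraries was not the same for both copies: the patch copy was highest at day 14 and the identified copy at day 28.

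Rab3a, a small GTPase of synaptic vesicles, reached 139 FPKM. Its patch locus (XLOC_077470) had 134 FPKM in control and, in day order, 139, 101, 120, 135 and 131 after stroke. The copy with the identifier had 139, 139, 103, 111, 102 and 123 FPKM, so that the 2 copies were near each other in 5 libraries and apart at day 14. Gstp1, a glutathione transferase, had 42.2 FPKM in control and, in day order, 48.8, 37.5, 39.4, 67.4 and 40.9 after stroke. Only 4 of its 9 splice boundaries were at Gstp1 sites, and since near-identical Gstp copies lie beside it, its reads could not be assigned with certainty.

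The largest ratios among the patch loci were those of Ifi30, a lysosomal thiol reductase of antigen processing that is induced by interferon gamma. Its locus (XLOC_077473) had 0.522 FPKM in control and, in day order, 0.533, 10.3, 9.91, 7.13 and 1.41 after stroke. The log2 ratios were, in day order, 0.03, 4.06, 4.01, 3.54 and 1.28, the highest of the nameless loci listed in both libraries at days 3, 7 and 14. Under its own identifier, Ifi30 was listed only at day 3, at 5.89 FPKM. In the other libraries only the nameless locus held a value, which is not a separate measure of the gene's expression. The match rests on 1 of 2 splice boundaries at the offset of the whole patch, and GENCODE M21 types this gene as a processed transcript. The microglial markers were also high on these days, with sums of 288, 487 and 371 FPKM at days 3, 7 and 14 against 91.6 in control. Of the 4 markers, Tyrobp, Trem2 and C1qa were above control on all 3 days and P2ry12 at day 3 only, and their part in this result was not tested.

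Rims1, a scaffold protein of the presynaptic active zone, was the patch locus with the lowest day 14 ratio but 1. Of the splice boundaries of this locus, 15 of 36 were at Rims1 sites. The locus had 28.8 FPKM in control and, in day order, 14.8, 19.99, 17.8, 5.41 and 15.9 after stroke, with a log2 ratio of -2.39 at day 14. Its identified copy had 29.3 FPKM in control, 16.5 at day 1 and 12.4 at day 7 and was not listed in the other 3 libraries. Lmbrd2, a membrane protein, was lower still at day 14, with 0.519 FPKM against 3.91 to 4.67 in the other libraries (log2 ratio -2.69), but its identified copy had 4.2 FPKM at day 14. At day 14, long transcripts had lower ratios across the whole table. Over 11541 genes with an identifier, which are not independent replicates, log2 ratio and longest transcript had a Spearman rho of -0.40. Over 72 matched loci of the present set it was -0.34. At day 1 the rho was -0.25 over genes with an identifier and -0.05 over matched loci. On the other days the rho over genes with an identifier lay between -0.09 and 0.01. The longest GENCODE transcripts of Rims1 and Lmbrd2 have 6446 and 8099 nt, beside a median of 3492 nt for the matched loci compared at day 14. The markers of cortical neurons also had their lowest sum at day 14 (742 FPKM against 1097 in control). Slc17a7 and Snap25 were lowest then, and Tbr1 was below control but lowest at day 3. Gad1 was above control at day 14 (77.3 against 70.3 FPKM). The part of transcript length and of these markers in the day 14 values was not tested.

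In the other direction, Map4k2, a protein kinase, had 2.72 FPKM in control and, in day order, 6.26, 3.52, 5.85, 3.20 and 10.03 after stroke. The identified copy ran the other way at the last 2 times, with 8.1 FPKM at day 14 and 3.2 at day 28. Baalc, a gene expressed in brain and leukemia, had 28.5 FPKM in control and, in day order, 51.6, 30.3, 36.9, 45.3 and 39.4 after stroke, and its own identifier was listed at day 28 only, at 29.5 FPKM. Jakmip3 had 0.406 FPKM at day 1 (log2 ratio -2.45) and 2.66 in control, and stood at 1.82 to 2.48 from day 3 on. The identified copy of Jakmip3 was lowest at day 1 too, at 2.2 FPKM against 3.9 in control. The patch locus of 2010315B03Rik was below control in all 5 post-stroke libraries, with 1.28 to 3.11 FPKM against 4.41.

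The smallest range over the 6 libraries, among loci of at least 1 FPKM in each, was that of Nrxn2, a presynaptic adhesion molecule, at 27.6 to 33.0 FPKM (0.26 on the log2 scale). The patch loci of Pitpnm1, Mast3 and Pik3r2, which encode a phosphatidylinositol transfer protein, a kinase and a regulatory subunit of phosphoinositide 3-kinase, followed with ranges of 0.32, 0.35 and 0.37. These loci were chosen for their small range, and their identified copies varied more, Pitpnm1 from 13.1 to 29.2 FPKM and Mast3 from 12.3 to 21.2.

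Where a patch locus and its identified copy were both listed, their levels were mostly alike. Between 31 (day 7) and 37 (day 3) of the 62 pairs were listed in both forms per library, and the median log2 difference, patch minus identified, lay between -0.27 in control and 0.19 at day 3. The differences were within 0.5 on the log2 scale for 19 (day 7) to 23 (days 1 and 28) pairs per library. The 2 forms were not the same values under 2 names: no pair held equal values in any library. Only the patch form was listed for 5 (day 7) to 10 (control) genes per library, and only the identified form for 15 (days 3 and 14) to 23 (day 7).

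For several genes the patch locus was listed in few libraries while the identified copy was listed in all. Since the division of reads between the copies is not known, such a gap does not show a change of the gene. C1qtnf4, a secreted protein of the C1q and TNF family, had a patch locus of 40.9 FPKM in control and in no other library, while its identified copy had 38.8 to 71.4 FPKM in all 6. The same held for the patch loci not listed in control that reached the highest levels after stroke. Ip6k2, an inositol hexakisphosphate kinase, was listed on the patch at day 28 only (20.1 FPKM) and under its identifier in all libraries (19.0 to 31.3). The mitochondrial ribosomal gene Mrps23 (10.5 FPKM, day 3 only) and the palmitoyltransferase gene Zdhhc8 (9.41 FPKM, day 7 only) had identified copies in all 6 libraries at 7.4 to 12.2 and 8.1 to 13.0 FPKM. Celf1, an RNA-binding protein, was listed on the patch at days 3, 14 and 28 (12.6, 6.96 and 12.3 FPKM), and its identified copy in all 6 libraries (6.3 to 13.0).

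Pdpn, the membrane glycoprotein podoplanin, was not listed on its patch in control and at day 7. At days 1, 3, 14 and 28 its patch locus had 6.64, 9.50, 6.87 and 3.78 FPKM. Under its identifier it was at 3.1 FPKM in control and 6.3, 6.4, 5.4, 5.8 and 3.5 at the 5 days, so that both forms were highest at day 3. Ide, the insulin-degrading enzyme, was the pair with the patch form furthest above, with 19.0 to 27.8 FPKM in the 5 libraries where it was listed and 0.8 to 4.9 under its identifier. Slc30a4, a zinc transporter, and Rad9a, a checkpoint protein, were listed on patches in control alone (5.01 and 0.92 FPKM) and under their identifiers in 5 and 6 libraries.

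**Figure D3:**
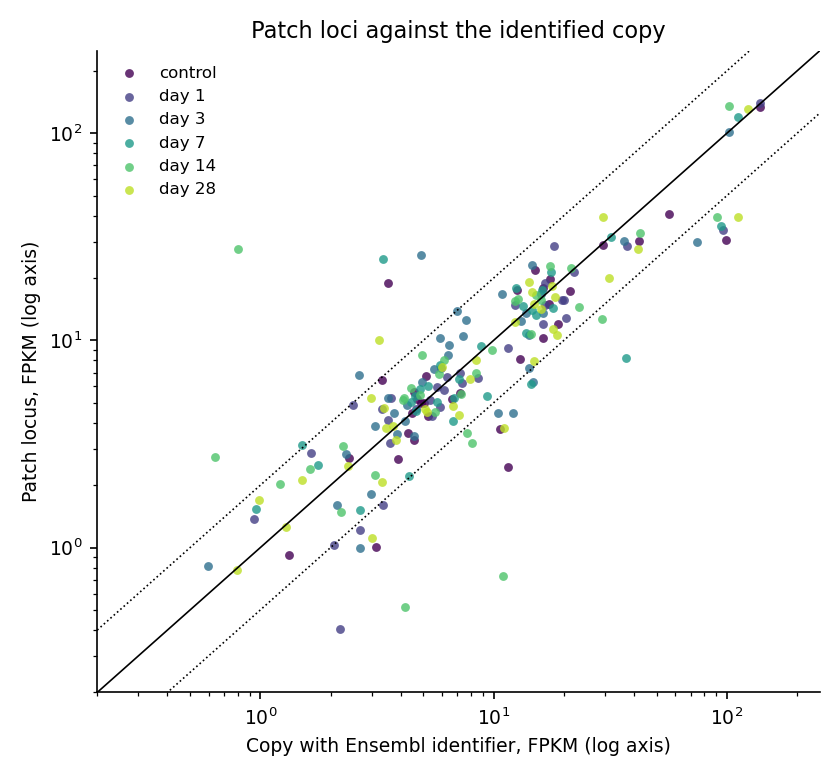
FPKM of the patch locus (vertical, log axis) against FPKM under the same gene's Ensembl identifier (horizontal, log axis), 1 point per gene and library where both were listed, coloured by library; the solid line marks equal values and the dotted lines 2-fold differences. Most points lay near the line, with medians of -0.27 to 0.19 on the log2 scale per library, and Ide lay furthest above it, at 19.0 to 27.8 FPKM on the patch against 0.8 to 4.9.

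Of the 12 patch loci that matched no gene, 3 were listed in all 6 libraries, the highest of them XLOC_077573 at 7.05 to 9.62 FPKM. XLOC_077449 had the largest day 1 ratio of the nameless loci listed in both libraries, with 1.90 FPKM against 0.593 in control (log2 ratio 1.53). XLOC_077548 had the smallest, with 0.468 FPKM against 5.41 (-3.28), and was not listed from day 3 on.

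Among the 134 loci that shared a GENCODE splice site, 35 fell on protein-coding genes, 65 on genes annotated as lincRNA, 17 as processed transcripts and 9 as antisense RNA. For 123 of the 134 loci the gene's identifier was found nowhere in the tables, so that the gene has values only in nameless loci. This held for 27 of the 35 loci on protein-coding genes. A few genes, among them Gm49519, Zmiz1os1 and Efcab1, took up 2 loci each. A median of 67.7% of a locus's splice boundaries was shared, and all 139 for Mdn1, a ribosome assembly factor, at 2.33 to 4.67 FPKM.

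Sod2, the manganese superoxide dismutase of mitochondria, was the most abundant of this set. Its locus (XLOC_030795, chr17:12992720-13040204, plus strand, 7 of 10 splice boundaries at Sod2 sites) had 37.2 FPKM in control and, in day order, 31.0, 31.3, 21.4, 25.6 and 26.8 after stroke. All 5 post-stroke libraries were below control, by 0.25 (day 3) to 0.80 (day 7) on the log2 scale, short of the threshold of 1. The locus starts 15119 bases before the RefSeq start of Sod2 and also covers the RefSeq gene Gm36117 on the same strand, so its level may hold more than Sod2.

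Spire1, an actin nucleator on chromosome 18 matched at 10 of 11 boundaries, was the next most abundant, with 29.0 FPKM in control and, in day order, 29.8, 28.8, 24.7, 21.3 and 29.5 after stroke. Its lowest value was at day 14 (log2 ratio -0.44).

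Tiam1, a guanine nucleotide exchange factor of Rac, stood apart at day 14. Its locus (XLOC_029160, chr16:89798032-90143835, minus strand) had 12.5 FPKM in control and, in day order, 12.4, 11.1, 10.4, 4.11 and 12.7 after stroke, a log2 ratio of -1.58 at day 14 and of -0.26 to 0.02 elsewhere. Tshz3, a zinc finger transcription factor, had 5.002 FPKM in control and, in day order, 4.33, 2.97, 2.45, 2.24 and 4.69 after stroke, each value up to day 14 being below the one before. Its day 14 log2 ratio was -1.12, but only 1 of the 12 splice boundaries of the locus was a Tshz3 site. The longest transcripts of Tiam1 and Tshz3 have 7289 and 5098 nt, both above that median, and the part of length was not tested here either.

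Morn2, a gene with MORN repeats, was highest at day 14. Its locus, matched at 1 of 3 splice boundaries, had 7.64 FPKM in control and, in day order, 9.63, 9.16, 12.5, 13.9 and 5.71 after stroke, with log2 ratios up to 0.85. Mir124-2hg, the host transcript of the neuronal microRNA miR-124 on chromosome 3, had 5.10 FPKM in control and, in day order, 5.07, 2.51, 6.81, 5.85 and 2.83 after stroke. It was thus low at days 3 and 28 (log2 ratios -0.99 and -0.83), and near or above control on the other days.

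**Figure D4:**
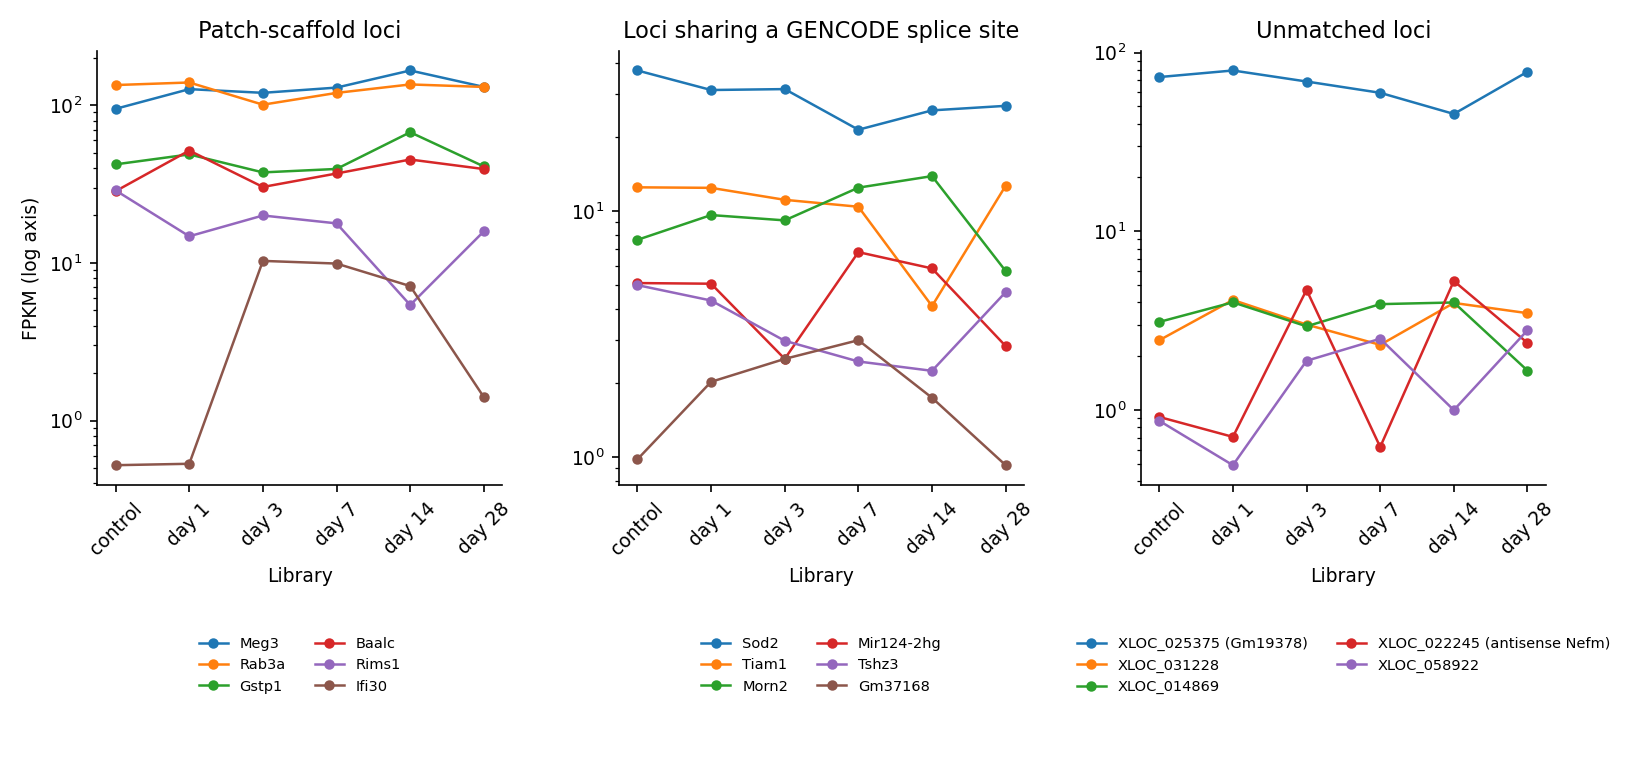
FPKM (log axis) of named loci in the control library and the 5 post-stroke libraries, for patch loci (left), loci that share a GENCODE splice site (middle) and unmatched loci (right), with 1 line per locus and 1 library per point. Ifi30 lies at 0.522 FPKM in control and 10.3 at day 3, Tiam1 is low at day 14 only (4.11 FPKM), and XLOC_025375 stays between 45.3 and 79.4 FPKM.

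Gm37168, annotated as a lincRNA, matched at all 7 splice boundaries and started at the first base of the RefSeq gene D730003I15Rik (XLOC_001702, chr1:191224454-191288036, plus strand). It had 0.981 FPKM in control and, in day order, 2.02, 2.51, 2.99, 1.74 and 0.928 after stroke. The values at days 1 to 14 were all above control and that at day 28 was near it, with log2 ratios of 0.98, 1.27, 1.51, 0.77 and -0.07. AC102342.2, a lincRNA on chromosome 18 matched at 2 of 8 boundaries, was highest at day 7 too, with 1.03 FPKM in control and, in day order, 0.465, 2.66, 3.77, 2.71 and 1.86 after stroke.

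Igfn1, an immunoglobulin-like protein gene matched at 17 of 23 boundaries, was below its control level of 3.66 FPKM in every post-stroke library, at 1.33, 1.71, 3.20, 1.63 and 2.34. The processed transcript 9330188P03Rik had 1.42 FPKM in control and, in day order, 0.421, 1.88, 0.952, 0.891 and 0.360 after stroke. Its day 28 ratio was the smallest of the loci listed in both libraries (-1.72). CT030661.1 had the third-lowest day 1 ratio (0.425 against 1.81 FPKM, -1.86), B830017H08Rik the lowest at day 7 (0.343 against 2.47, -2.53) and Zfp114, a zinc finger gene, the third-lowest there (0.730 against 1.86, -1.24). The last of these matched Zfp114 at 4 of 8 boundaries and also overlapped the RefSeq genes Zfp108 and Zfp93 on its strand, so its level may hold more than Zfp114. Cyp2j6, a cytochrome P450, varied least of this set, at 5.09 to 6.58 FPKM.

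The largest class of the 671 unmatched loci lay away from GENCODE genes. By position against GENCODE genes, 336 were intergenic (over 5 kb from any gene), 130 lay within 5 kb of a gene on the other strand, 63 downstream and 62 upstream of a gene on the same strand within 5 kb, 44 overlapped a gene on the other strand and 36 one on the same strand. The nearest GENCODE gene to the intergenic loci was a median of 18.2 kb away, but 148 of the 336 overlapped a RefSeq gene on their own strand. Of the 44 antisense loci, 23 had a first or last exon over an exon of the other strand. Though unmatched in GENCODE, 277 of the 671 overlapped a RefSeq gene on their own strand, 241 of them a RefSeq lncRNA, and the start of 131 lay within 1 kb of a RefSeq start.

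An uneven split by strand ran through the set. Of the unmatched loci, 549 (81.8%) were on the plus strand, and the share was 77.3% to 88.7% in the 6 position classes. It was 76.1% for the loci with a GENCODE splice site, 64.9% for patch loci and 54.6% for loci with an identifier. How the assembly assigned strand is not given in the sources used here and was not tested, so the classes that rest on strand, such as the 44 antisense loci and the 130 beside a gene on the other strand, hold only as far as the listed strand does. Among the autosomes and chromosome X, from 2.75% (chromosome 9) to 9.77% (chromosome 18) of the loci had no identifier, and chromosome Y held 1 such locus beside 7 with an identifier.

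**Figure D5:**
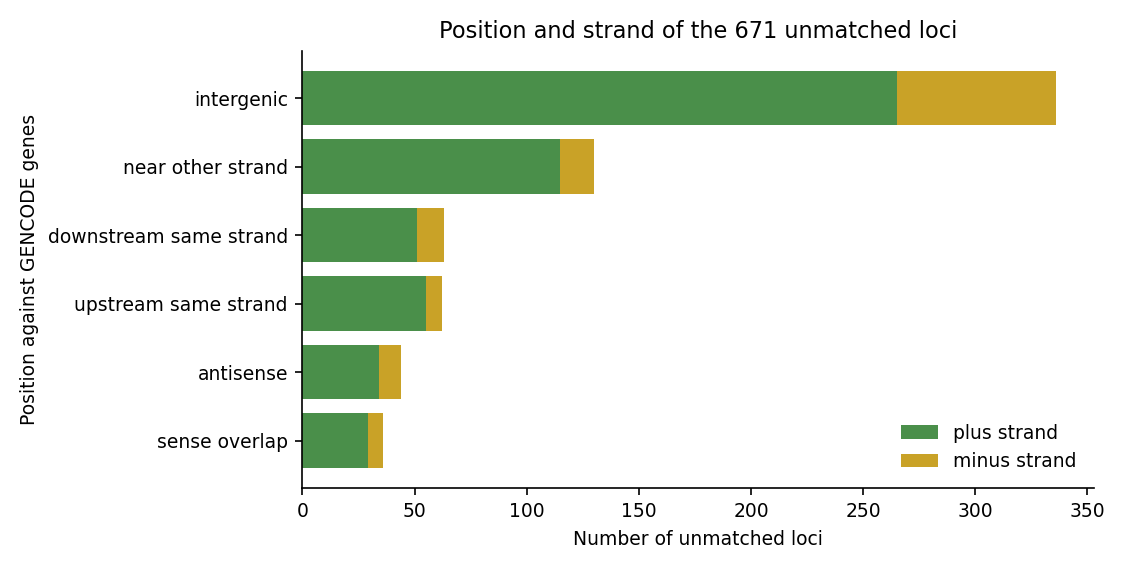
Number of unmatched loci by position against GENCODE M21 genes, with plus-strand loci in green and minus-strand loci in yellow. The 336 intergenic loci are the largest class, and plus-strand loci make up 77.3% to 88.7% of every class.

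One unmatched locus was among the most abundant of all. XLOC_025375 (chr15:89767588-89768908, plus strand) lies at the RefSeq lncRNA gene Gm19378, whose start region is printed above, and is intergenic in GENCODE. It had 72.9 FPKM in control and, in day order, 79.4, 68.9, 59.5, 45.3 and 78.1 after stroke. Day 14 was the lowest, with a log2 ratio of -0.68, and control, day 1 and day 28 were the highest. The markers of cortical neurons, too, summed to their lowest value at day 14 (742 FPKM against 1097 in control), though Gad1 was above control there. The part of these markers was not tested. The nearest gene, Syt10, a synaptotagmin 13485 bases away, was at 2.19 to 4.31 FPKM and not listed at day 14.

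XLOC_022245 (chr14:68124660-68131371, plus strand) lay antisense to Nefm, the gene of the medium neurofilament chain, with an end exon over a Nefm exon. Nefm spans chr14:68082590-68124846, so the locus overlaps only the 5′ end of Nefm and lies mostly outside it. XLOC_022245 had 0.914 FPKM in control and, in day order, 0.707, 4.70, 0.621, 5.27 and 2.37 after stroke. Its log2 ratios of 2.24 at day 3 and 2.40 at day 14 were the second largest of the nameless loci on those days, with day 7 below control between them. Nefm itself had 58.6 FPKM in control and 44.8 to 56.4 after stroke.

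Beside March6, a ubiquitin ligase gene, XLOC_024974 (chr15:31531123-31533580, plus strand) lay 70 bases away on the opposite strand and started within 19 bases of the RefSeq start of Gm41287. It had 1.07 FPKM in control and 0.558, 0.560, 0.349 and 0.520 FPKM over the first 4 times after stroke. At day 28 it was not listed, and its day 7 log2 ratio of -1.38 was among the 3 lowest. March6 had 22.7 to 35.9 FPKM. A group of loci on chromosome 4, near Gm13302 and copies of the chemokine gene Ccl21, was listed in changing combinations. XLOC_049160 (chr4:41885594-41890146) had 4.41 FPKM in control, 1.18, 2.17 and 0.468 at days 3, 7 and 14 and was not listed at days 1 and 28, while XLOC_049157 had 1.35 FPKM in control, 4.17 and 1.31 at days 14 and 28, and no value at the other times. The region holds near-identical gene copies, so the assignment of reads among them is uncertain.

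Among the other unmatched loci with ratios of this size, levels stayed below 3 FPKM in every library. XLOC_025817 (28530 bases from Adgrb1) had its highest level at day 28, with 2.73 FPKM against 0.5004 in control, and XLOC_066695 (over Gm10297) likewise, with 1.68 against 0.419. XLOC_000611 (12834 bases from Wnt10a) had 1.80 FPKM in control and 0.617 to 0.915 in the 4 post-stroke libraries where it was listed. XLOC_077595, on an unplaced scaffold, had 1.18 FPKM at day 1 and 0.392 in control.

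Unmatched loci and their nearest genes shared the sign of the change in about as many cases as not. Between 35 and 46 loci per day were listed in both libraries along with their nearest gene. In day order, 18 of 35, 27 of 45, 20 of 46, 25 of 44 and 23 of 45 had a log2 ratio of the same sign as the gene. In day order, the Spearman rho between both ratios was -0.17, 0.18, 0.01, 0.11 and 0.12. It is a description over loci of the same pair of libraries, without a test.

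Among unmatched loci listed in a single library, those of at least 1 FPKM were most numerous at day 1. Of 90 unmatched loci listed at day 1 only, 12 reached 1 FPKM, all on the plus strand, against 2 of 94 listed in control only, 3 of 79 at day 3, 0 of 71 at day 7, 3 of 77 at day 14 and 2 of 57 at day 28. The highest were XLOC_021670 (chr14:32115304-32120418, 6.80 FPKM), XLOC_050292 (chr4:149433983-149439196, 6.50 FPKM), XLOC_055136 (chr5:135623627-135628905, 4.55 FPKM) and XLOC_025296 (chr15:82359873-82367982, 4.52 FPKM), lying 2545 to 12102 bases from Oxnad1, Ube4b, Rhbdd2 and Cyp2d22. All 12 were listed with 1 first exon, 1 last exon and no other event, as were 89 of the 90 unmatched loci listed at day 1 only. Whether further exons lay between the first and the last is not given by these events. The distance between first and last exon was 546 to 5150 bases for the 12 (median 4411), beside a median of 2759 bases over the 89. Outside day 1, the highest single-library locus was XLOC_059095 at day 28 (4.74 FPKM), with 195 bases between its first and last exon. In control alone, XLOC_071307 beside Fam32a and XLOC_025524 had 1.61 and 1.21 FPKM.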

How the data were processed

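Poly(A) RNA of the ipsilateral cortex was sequenced in 6 libraries, each a pool of 3 mice. The deposited values are FPKM that the authors assigned to transcript starts, transcript ends and splicing events of 1 merged assembly, and events at 0 are left out. The submitters' processing notes name Trimmomatic 0.30, HISAT2 2.0.1, HTSeq 0.6.1 and the build mm10. The assembler is not given in the sources used here. Depth per library is unknown, so no interval or floor is given.

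Loci were grouped by assembly number. Splice boundaries were compared with GENCODE M21. Those of each patch were shifted by 1 offset, with at least 4 pooled matches (or at least 2 at an offset of 0 on 1 chromosome only), and each locus by up to 1000 bases around it. A patch locus was matched where at least 1 in 3 of its boundaries were at sites of 1 gene. Loci of at least 1 FPKM in 1 of 2 libraries were compared by log2((FPKM + 0.1)/(control + 0.1)). Members and lists were chosen with earlier results of these data known, and the level follows that earlier work. Loci named are the 10 with the highest FPKM, the 3 largest and 3 smallest ratios of each day among loci listed in both libraries, 5 not listed in control, 5 listed in control and fewest other libraries, and the 5 with the smallest range. Others named (among them Tiam1, Tshz3, Morn2, Mir124-2hg, Mdn1, Ide, XLOC_077573 and the loci listed at 1 time only) were chosen after their values were seen. Position classes, patch matching and counts recovered all simulated cases. The simulated patch copies had more boundaries than many of the real matches, and the simulated levels had no noise. These cases therefore do not test matches at few boundaries or the counts of real loci. A search of poly(A) signals and base composition was not run, since no genome was used here. Computations ran in Python 3.11.15 with pandas 2.3.3, numpy 2.4.6 and scipy 1.17.1, and plots in matplotlib 3.10.9.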

Additional observations from a re-analysis of the deposited data

How the results depend on the processing

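With 1 pooled library per group, the values show what these 6 libraries held and nothing of the spread between mice, and a low locus can drop out of a table for want of reads. No paired analysis was possible because each group had 1 library and no result came from a test.

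Without the filter at 1 FPKM, the loci higher at days 1, 3, 7, 14 and 28 numbered 176, 171, 172, 173 and 157 and the lower ones 189, 166, 174, 185 and 173. With only loci listed in both libraries they were 5, 7, 7, 7 and 9 higher and 10, 3, 7, 16 and 4 lower. Without the patch loci, an alternative chosen after seeing the data, 11, 14 and 16 were higher at days 7, 14 and 28, and 22, 14, 16, 24 and 16 lower at the 5 days; the counts higher at days 1 and 3 stayed within 1.5 times. Summed transcript ends alone gave 15 higher at day 28. Counts with a pseudocount of 1, with summed starts, scaled to the median ratio, or with loci joined by overlapping span were within 1.5 times of those reported.

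With 1 kb in place of 5 kb, 25 loci were downstream and 23 upstream of a gene on the same strand, and with 20 kb 149 and 143, leaving 153 intergenic. With the nearest gene taken on the same strand, the rho between locus and gene turned to 0.0552, -0.0395 and -0.212 at days 1, 3 and 7; the cause was not tested.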
